A study of Neurospora crassa with 6 samples.

Results

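Staurosporine, an inhibitor of protein kinases with a broad target range, was given to germinated spores of the filamentous fungus Neurospora crassa in minimal medium labelled 0 Ca2+, and poly(A) RNA was sequenced. Conidia of the wild-type strain, the asexual spores, were grown for 6 h and kept for 1 h more with staurosporine at 20 µM or with its solvent, DMSO. The same pair of treatments was made in standard minimal medium and in medium to which 20 mM CaCl2 was added, 6 groups with 1 library in each; all cultures share the strain, the growth time and the treatment time. The gene table holds 9691 genes in FPKM, which divides fragments by transcript length and by library size, as deposited by the authors. Genes described here are the 7531 that average at least 1 FPKM over the DMSO and staurosporine libraries of 0 Ca2+ medium. The ratio used throughout is the log2 ratio of FPKM + 1, staurosporine against DMSO, and a gene is counted as higher or lower when it is at least 1 in absolute size, which is 2 times. With 1 library a side there is no replicate error and no test within this medium. Differences between the 2 libraries are therefore given as values, and fewer cells of a type and less RNA per cell cannot be told apart.

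Growing hyphal cells spend much of their transcription on ribosomes. RNA polymerase I makes the ribosomal RNA in the nucleolus, DEAD-box helicases and many assembly factors fold and trim it, and karyopherins carry ribosomal proteins into the nucleus. When growth stops, fungi commonly lower this set and raise genes for the use of fatty acids, amines and purines, for vacuolar breakdown and for spore formation. In Neurospora staurosporine is known to induce a programmed death of the cells, and external calcium is part of the signalling around that death.

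In 0 Ca2+ medium 1409 genes were higher with staurosporine, which is 18.7% of the genes tested, and 1571 were lower, which is 20.9%. Counts of higher and lower genes in the lists below stand against these shares. The median log2 ratio was -0.09, with quartiles at -0.84 and 0.71, and the whole range ran from -6.68 to 6.93. Large ratios were more often on the lower side: 132 genes were higher and 218 lower by a log2 ratio of at least 3, and 31 and 76 by at least 4. The interquartile range was 1.55 here, 1.18 in standard medium and 0.724 in 20 mM CaCl2 medium, where 958 and 189 genes were higher and 1071 and 444 lower. FPKM summed to 953522 in the DMSO library and 696047 in the staurosporine library. Scaled to equal sums the split was 2089 higher and 1020 lower, with the median moved by 0.41. Centred on the median of the genes averaging at least 10 FPKM, it was 1763 and 1224, with the median moved by 0.23. Gene length moved with the ratio: with genes cut into 5 equal bins of length, the median went from 0.39 in the shortest to -0.38 in the longest, while in standard medium it went from -0.12 to 0.41 and in 20 mM CaCl2 medium from -0.34 to 0.13. With this trend removed 1117 genes were higher and 1570 lower, the ribosome biogenesis median described next was -3.70 in place of -3.74, and 3 of the 44 lists changed the sign of their median. The read depth is unknown.

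**Figure D1:**
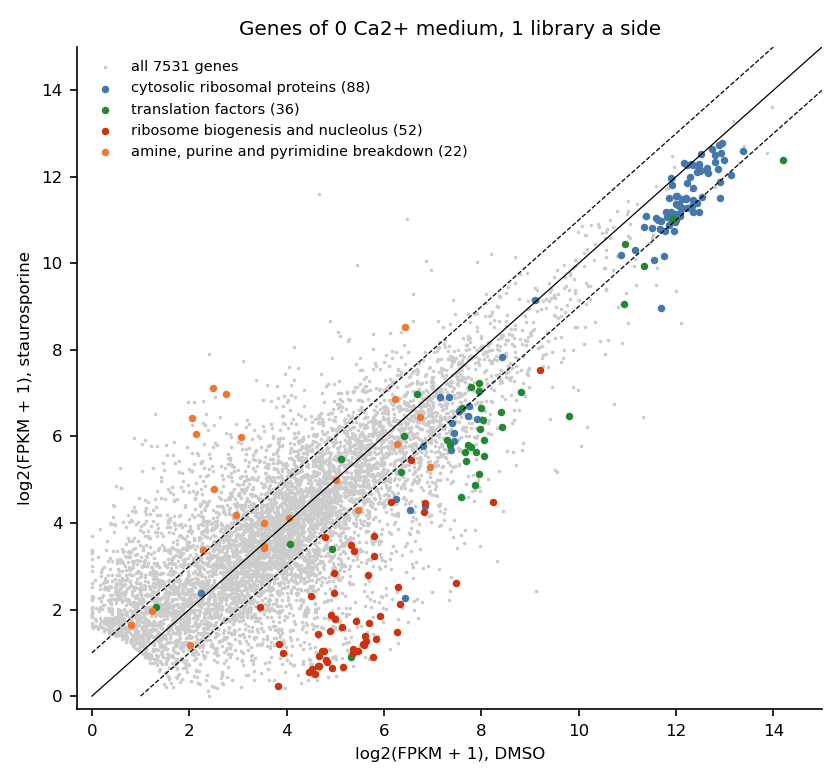
Each point is 1 of the 7531 genes, with log2(FPKM + 1) in the DMSO library of 0 Ca2+ medium on the x axis and in the staurosporine library on the y axis; 4 gene lists are coloured, the solid line is equality and the dashed lines are 2 times. All 52 ribosome biogenesis genes lie below the lower dashed line, while genes far above the upper one start mostly from low DMSO values.

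**Figure D2:**
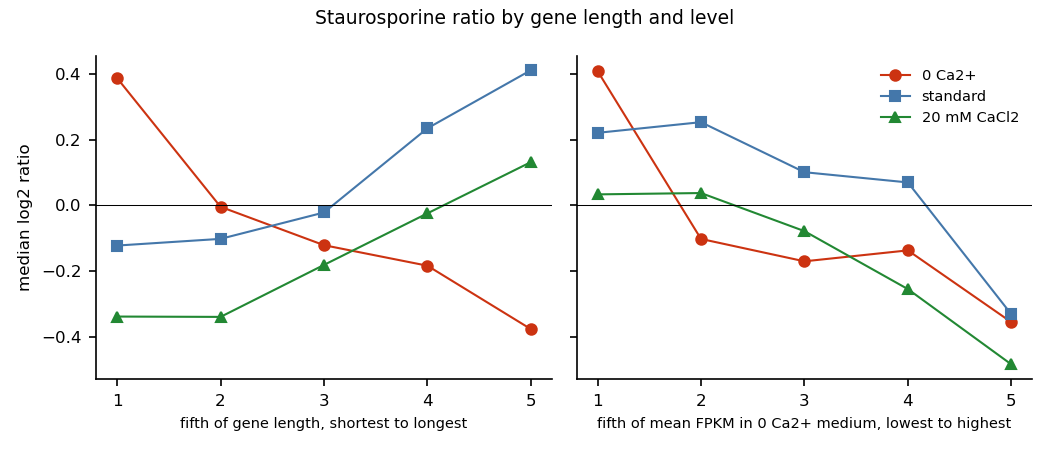
Median log2 ratio of staurosporine against DMSO (y axis) by bin of gene length and by bin of mean FPKM (x axes, 5 bins each, shortest or lowest first), in the 3 media. By length the 0 Ca2+ line goes down from 0.39 to -0.38 while the standard line goes up from -0.12 to 0.41.

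The genes that make ribosomes had the lowest median of the 44 lists. All 52 genes of the ribosome biogenesis and nucleolus list were lower by at least 2 times, against 20.9% of all genes, with a median log2 ratio of -3.74, and their FPKM summed to 3117 with DMSO and 439 with staurosporine. The member nearest to 0 was at -1.10. The medians of the same genes were -1.60 in standard medium and 0.42 in 20 mM CaCl2 medium, so the 3 media stand in the order 0 Ca2+, standard, 20 mM. NCU08595, annotated as a ribosome biogenesis protein, went from 76.4 to 1.77 FPKM in 0 Ca2+ medium, against 82.6 to 17.2 in standard medium and 69.9 to 84.7 with 20 mM CaCl2. NCU02546, a nucleolar GTP-binding protein of large-subunit assembly, went from 56.5 to 1.497 FPKM, against 77.0 to 15.1 in standard medium and 61.1 to 96.3 with 20 mM CaCl2. Both genes had DMSO values within a narrow range over the media and differed among the staurosporine libraries, in which 0 Ca2+ was the lowest.

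RNA helicases, which unwind RNA in ribosome assembly, splicing and translation, had 21 of 33 genes lower and 1 higher, at a median of -2.26. The gene for ded-1, known in yeast for its work in translation initiation, had a log2 ratio of -5.20, against -1.44 in standard medium and 0.047 in 20 mM CaCl2 medium. The gene had 321 FPKM with DMSO and 7.74 with staurosporine in 0 Ca2+ medium, against 375 to 138 in standard medium and 379 to 391 with 20 mM CaCl2. The helicase gene has-1 (NCU09349), of ribosome assembly in yeast, went from 53.7 to 1.70 FPKM. The mitochondrial DEAD-box gene cyt-19, whose product helps group I introns to splice in Neurospora, went from 109 to 3.49 FPKM, against 93.5 to 27.2 in standard medium and 68.7 to 111 with 20 mM CaCl2. So the low helicases were not only nucleolar ones: a mitochondrial one stood among the 4 lowest.

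RNA polymerase subunits were lower in 11 of 18 genes and higher in 0. The 6 subunits of RNA polymerase I, with those it shares only with polymerase III, were all lower, with a median of -3.62 and a range of -3.96 to -1.12. Of the 12 other subunits, which pool polymerases II and III and those common to all, 5 were lower and 0 higher, against 20.9% of all genes lower. Their median was -0.49, but the lowest was at -3.23, so the groups overlap. RPA1 (NCU01638), the largest subunit of polymerase I, went from 34.8 to 1.304 FPKM, against 28.5 to 8.67 in standard medium and 29.5 to 57.4 with 20 mM CaCl2. RPA2 (NCU08616, un-18) went from 33.3 to 1.86 FPKM, against 34.9 to 12.8 in standard medium and 29.6 to 59.5 with 20 mM CaCl2. For both genes the staurosporine library was the lowest of the 6 in 0 Ca2+ medium and the highest of the 6 in 20 mM CaCl2 medium.

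Nuclear transport genes followed, with 7 of 13 lower and 0 higher, at a median of -1.05 against -0.042 and 0.094 in standard and 20 mM CaCl2 medium. Kap123 (NCU05650), known in yeast as an importer of ribosomal proteins, had a log2 ratio of -5.07. Exportin-T (NCU00134), the carrier of transfer RNA out of the nucleus, went from 30.7 to 6.80 FPKM, against 26.3 to 25.5 in standard medium and 27.3 to 33.3 with 20 mM CaCl2. Its standard and 20 mM libraries differed little between treatments, and the 0 Ca2+ staurosporine value lay below the other 5. In the splicing list 16 of 63 genes were lower and 0 higher, a share near the background, at a median of -0.51. The lowest was NCU01612, annotated as a pre-mRNA splicing factor helicase, which went from 31.1 to 0.902 FPKM.

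**Figure D3:**
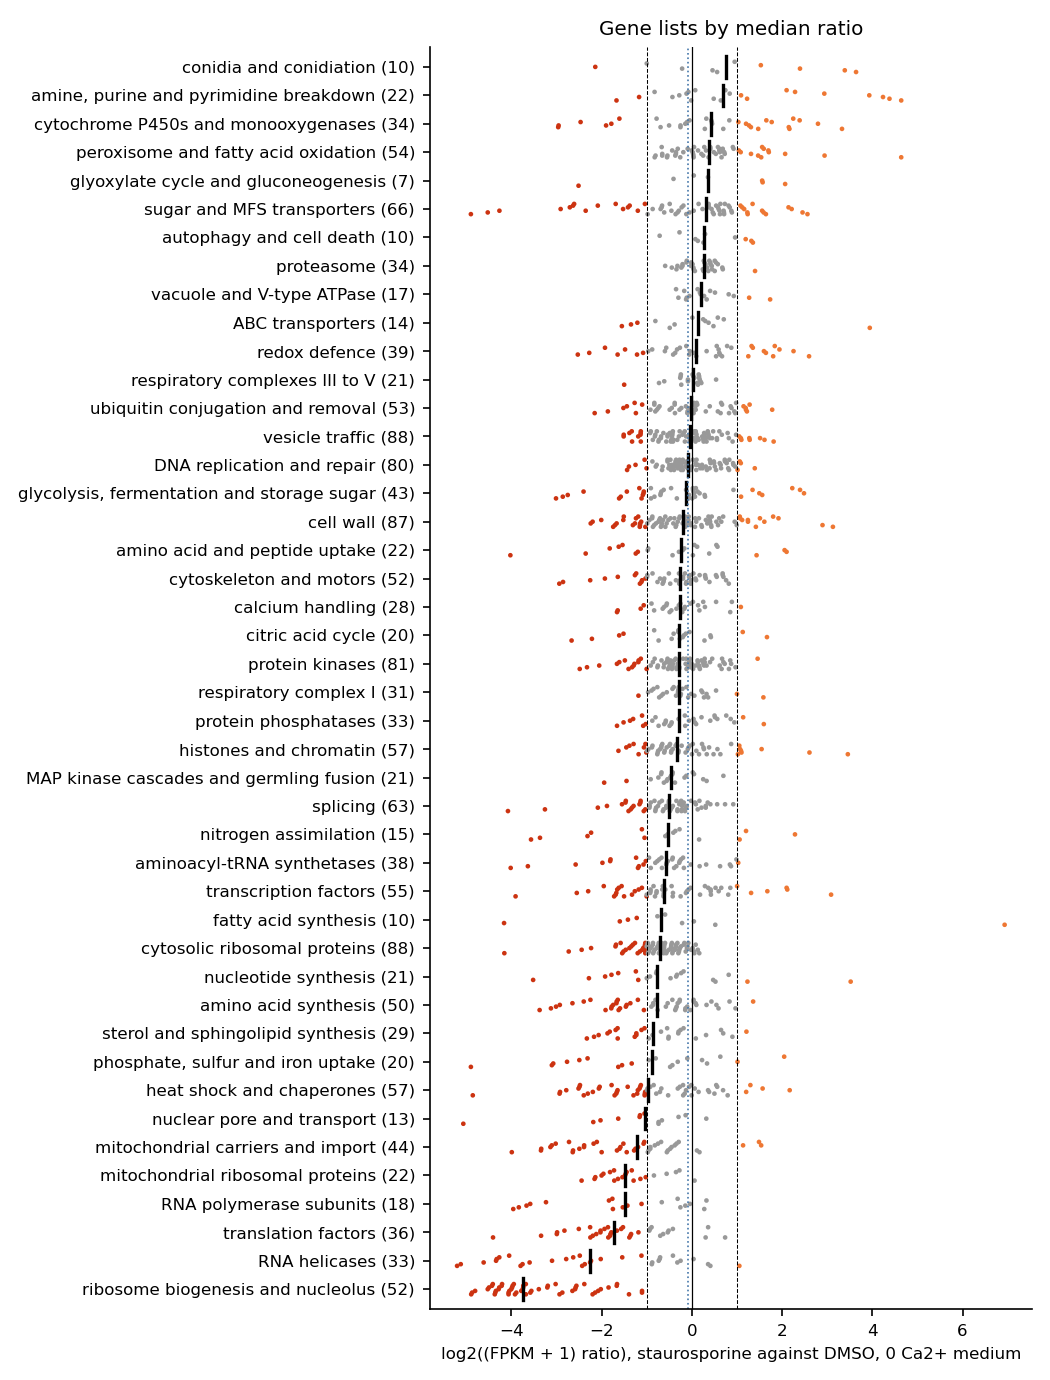
Log2 ratio of staurosporine against DMSO in 0 Ca2+ medium (x axis) for the genes of 44 lists (rows, ordered by median); each point is 1 gene, the black bar is the list's median and the dotted line the median of all genes. Ribosome biogenesis lies lowest at a median of -3.74, and conidia and conidiation highest at 0.75, an order at this end that changes with no filter.

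Translation factors were lower too, in 25 of 36 genes with 0 higher, at a median of -1.72. Within them 10 of 11 subunits of initiation factor 3, the scaffold that brings mRNA to the small ribosomal subunit, were lower, at a median of -2.02. Elongation factor 3 (NCU07922), a factor that fungal ribosomes need, had 894 FPKM with DMSO and 87.3 with staurosporine in 0 Ca2+ medium, against 848 to 427 in standard medium and 797 to 1053 with 20 mM CaCl2. Initiation factor 4E (NCU02076), which binds the cap of mRNA, went from 190.2 to 23.1 FPKM, against 223 to 102 in standard medium and 268 to 207 with 20 mM CaCl2. The gene tef-1, for elongation factor 1 alpha, had the highest FPKM of any gene in the DMSO library and went from 18830.1 to 5357 FPKM. In the other media it went from 19708 to 8875 in standard medium and 15937 to 14959 with 20 mM CaCl2. Each of these genes was lowest with staurosporine in 0 Ca2+ medium and nearer to its DMSO value in 20 mM CaCl2 medium.

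Ribosomal proteins themselves did not stand with their assembly factors. Of 88 cytosolic ribosomal protein genes 25 were lower and 0 higher, at a median of -0.70, while in standard medium the median was -2.10 with 83 genes lower. In 20 mM CaCl2 medium the median was -0.79 with 21 genes lower, close to the values of 0 Ca2+ medium. The 70 genes averaging at least 1000 FPKM over the 6 libraries had 13 lower, at a median of -0.68. The 18 genes below that mean had 12 lower, at -1.18. Ribosomal protein P2 (NCU00979), of the stalk of the large subunit, went from 7926 to 7064 FPKM, against 8628 to 1756 in standard medium and 13141 to 4355 with 20 mM CaCl2. S22 (NCU06431) went from 5869 to 5940.5 FPKM, against 6322 to 1329.7 in standard medium and 6049.6 to 3467 with 20 mM CaCl2. At the other end L30 (NCU08963) went from 3316 to 499 FPKM. In P2 and S22 the 0 Ca2+ pair is therefore the one in which staurosporine and DMSO differed least. Both were named as among the most abundant genes, and that ranking also used the 0 Ca2+ staurosporine library, so they do not stand for the list.

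**Figure D4:**
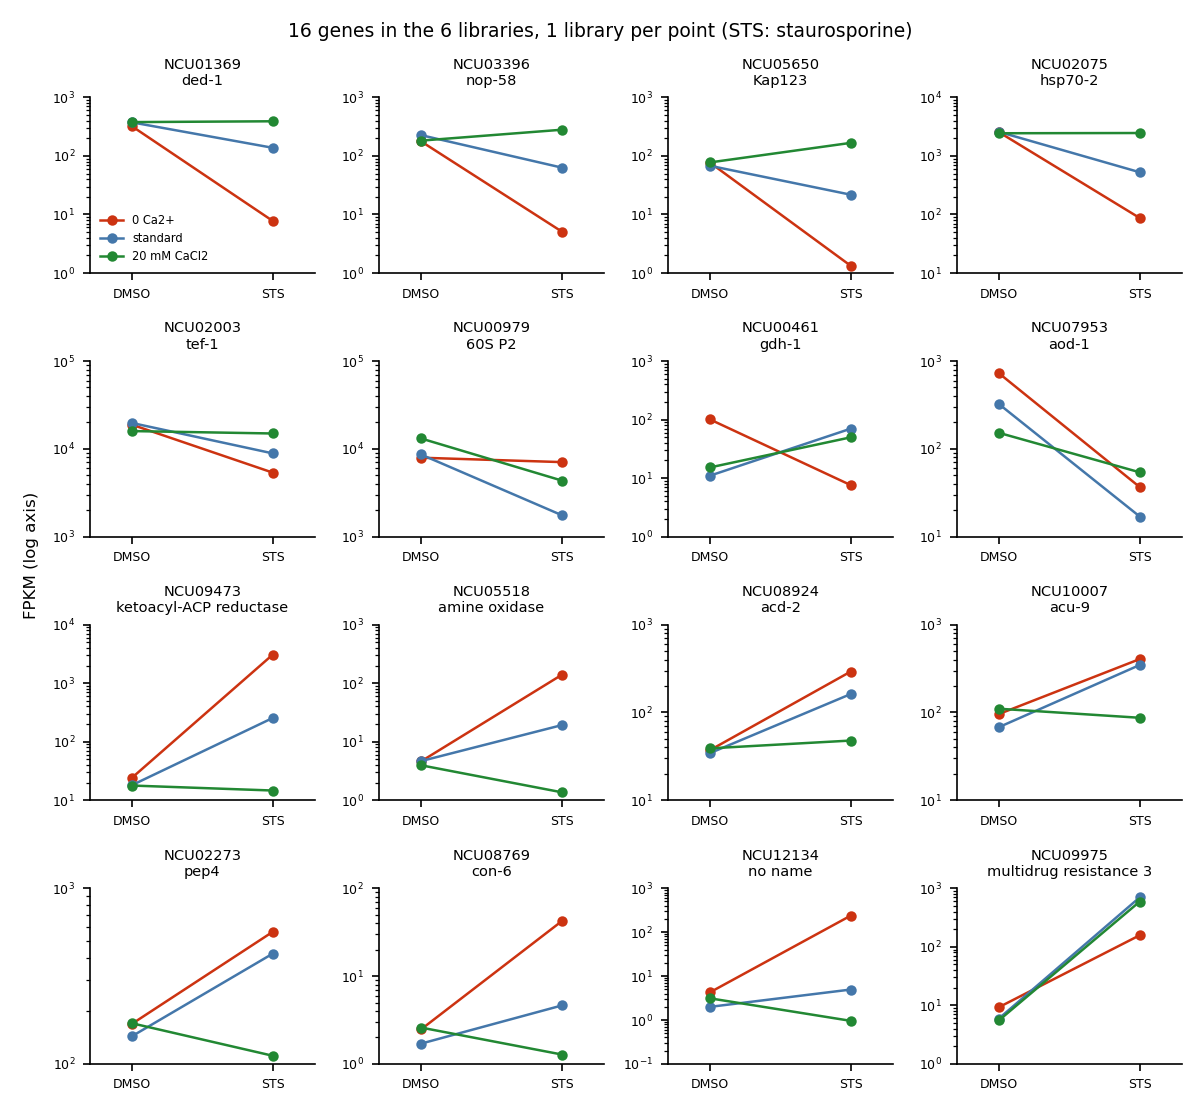
FPKM (log y axes) of 16 genes with DMSO and with staurosporine (STS) on the x axes; each point is 1 library and lines join the 2 libraries of 1 medium. In the genes ded-1, nop-58, Kap123 and hsp70-2 the 0 Ca2+ line is the steepest downward and the 20 mM CaCl2 line is flat or upward, while for the ribosomal protein P2 the 0 Ca2+ line is the flattest.

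Among mitochondrial genes, those for ribosomes and import were lower, and those for the respiratory chain mostly were not. Mitochondrial ribosomal proteins had 17 of 22 genes lower, at a median of -1.47, close to the -1.53 of standard medium. Carriers and import proteins had 25 of 44 lower and 3 higher, at -1.22. Among these, 7 of 11 genes of import across the inner membrane and 8 of 9 of the outer membrane were lower. The gene tim44, which ties the import channel to its motor, went from 106 to 9.58 FPKM, against 85.4 to 34.3 in standard medium and 84.9 to 83.1 with 20 mM CaCl2. The carrier gene RIM2 (NCU01916), a pyrimidine nucleotide carrier in yeast, went from 18.6 to 0.230 FPKM, against 9.62 to 8.36 in standard medium and 9.83 to 37.96 with 20 mM CaCl2. RIM2 was thus lowest with staurosporine in 0 Ca2+ medium and highest with staurosporine in 20 mM CaCl2 medium.

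In respiratory complexes III to V 1 of 21 genes was lower and 0 higher, at a median of 0.031, a value that turns to -0.16 with the length trend removed. In standard medium 18 genes of the list were lower, at -1.20. ATP synthase subunit 5 (NCU01606) went from 1119 to 1625 FPKM, against 1296 to 557 in standard medium and 1014 to 763 with 20 mM CaCl2. Complex I had 2 of 31 higher and 1 lower, at a median of -0.29, which turns to 0.16 with equal FPKM sums. The alternative oxidase gene aod-1, whose product passes electrons to oxygen without complexes III and IV, went from 726 to 36.7 FPKM, against 324 to 17.0 in standard medium and 152 to 54.05 with 20 mM CaCl2. Its ratio in 0 Ca2+ medium, -4.27, was close to the -4.18 of standard medium.

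Chaperones were lower in 27 of 57 genes and higher in 4, at a median of -0.98. The gene hsp70-1 had 1013 FPKM with DMSO and 133 with staurosporine in 0 Ca2+ medium, against 956 to 911 in standard medium and 888 to 1278 with 20 mM CaCl2. The hsp70-2 gene, of the same family of ATP-driven folding proteins, went from 2550.1 to 87.1 FPKM, against 2579 to 527 in standard medium and 2441 to 2464 with 20 mM CaCl2. NCU07414, of the DnaJ family that partners Hsp70, went from 124 to 17.1 FPKM, against 119.5 to 228 in standard medium and 125 to 140.3 with 20 mM CaCl2. In all 3 genes the 0 Ca2+ staurosporine library was the lowest of the 6. The T-complex chaperonin, which folds actin and tubulin, had 4 of 8 subunits lower, at -0.98.

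Enzymes that make building blocks were lower in part. Of 50 amino acid synthesis genes 21 were lower and 1 higher, at a median of -0.78. The counts varied by pathway: in cysteine and methionine synthesis 7 of 11 genes were lower at a median of -1.64, and in leucine, isoleucine and valine synthesis 5 of 7 at -1.45. In arginine synthesis 0 of 8 were lower, at a median of 0.38. The sulfite reductase gene cys-2 went from 281 to 31.3 FPKM, against 135 to 86.4 in standard medium and 178 to 184 with 20 mM CaCl2. The cystathionine gamma-lyase gene cys-16 went from 59.0 to 6.89 FPKM, against 34.5 to 20.2 in standard medium and 37.4 to 73.2 with 20 mM CaCl2. For this list the DMSO library of 0 Ca2+ medium was itself above that of standard medium, by a median log2 of 0.49, and the ratios are taken against that library.

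Nucleotide synthesis had 7 of 21 genes lower and 2 higher. The first enzyme of purine synthesis, amidophosphoribosyltransferase (ad-7), went from 94.1 to 7.30 FPKM, against 67.7 to 18.2 in standard medium and 79.3 to 91.5 with 20 mM CaCl2. NCU04318, annotated as a dihydroorotate dehydrogenase, went the other way, from 3.96 to 55.96 FPKM, against 3.10 to 5.40 in standard medium and 3.74 to 3.69 with 20 mM CaCl2. Of its 6 values only that with staurosporine in 0 Ca2+ medium lay above 6 FPKM. Aminoacyl-tRNA synthetases had 11 of 38 lower and 1 higher, with a lysyl-tRNA synthetase gene (NCU00931) going from 37.7 to 1.39 FPKM. The tyrosyl-tRNA synthetase gene cyt-18, which also helps mitochondrial introns to splice, went from 60.6 to 3.96 FPKM, against 44.2 to 14.5 in standard medium and 42.3 to 44.9 with 20 mM CaCl2.

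Sterol and sphingolipid synthesis was lower in 13 of 29 genes and higher in 1, at a median of -0.87, against 0.24 in standard medium and -0.024 in 20 mM CaCl2 medium. Hydroxymethylglutaryl-CoA synthase (NCU03922), early in the pathway to ergosterol, went from 435 to 96.0 FPKM, against 391 to 398 in standard medium and 422 to 415 with 20 mM CaCl2. The sterol methyltransferase gene erg-4 went from 185 to 49.8 FPKM, against 158 to 181 in standard medium and 167 to 203 with 20 mM CaCl2. Both had lower values with staurosporine in 0 Ca2+ medium than in each of the other 5 libraries.

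Fatty acid synthesis genes went several ways, 4 of 10 lower and 1 higher, at a median of -0.68 against 1.08 and 0.39 in standard and 20 mM CaCl2 medium. The subunit genes of the fatty acid synthase, cel-1 and cel-2, had log2 ratios of -1.60 and -1.42 here and 1.05 and 1.10 in standard medium. Acetyl-CoA carboxylase (NCU08535), the enzyme that commits carbon to the pathway, went from 139.7 to 120.1 FPKM, against 101 to 525 in standard medium and 111 to 539 with 20 mM CaCl2. The desaturase gene NCU09497 went from 347 to 18.5 FPKM, against 477 to 190.0 in standard medium and 494 to 484 with 20 mM CaCl2. The elongase genes were near their DMSO values here, NCU06694 at -0.59 and NCU08976 at 0.045, with 1.92 and 1.23 in standard medium. The delta-12 desaturase gene ods was at -1.22, the desaturase gene NCU02408 at -0.76 and the transacylase gene NCU04010 at 0.52. The single gene higher, NCU09473, is annotated as a ketoacyl reductase and had the highest ratio of all genes, 6.93. Its FPKM went from 24.3 to 3086 here, against 18.1 to 255 in standard medium and 17.9 to 14.7 with 20 mM CaCl2.

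Uptake genes held some of the largest single values on the lower side. The neutral amino acid permease gene mtr went from 232 to 13.3 FPKM, against 253 to 81.4 in standard medium and 246 to 211 with 20 mM CaCl2. The hexose transporter gene NCU01633 went from 1062 to 54.2 FPKM, against 537 to 409.9 in standard medium and 403 to 568 with 20 mM CaCl2. The glucose transporter gene NCU05627, annotated as ght1, went from 64.0 to 7.66 FPKM, against 36.4 to 125 in standard medium and 31.0 to 52.9 with 20 mM CaCl2, so its ratio was below 0 in 0 Ca2+ medium and above 0 in the others. Of 20 phosphate, sulfur and iron uptake genes 9 were lower and 2 higher, and the DMSO library of 0 Ca2+ medium was above that of standard medium by a median of 0.55. The sulfate permease gene cys-14 went from 199 to 22.7 FPKM, against 51.3 to 8.62 in standard medium and 23.4 to 20.1 with 20 mM CaCl2. The wider list of sugar and other major facilitator transporters had 13 of 66 higher and 15 lower, at a median of 0.30 that turns to -0.09 with a mean FPKM of at least 10. The amino acid and peptide uptake list had 3 of 22 higher and 7 lower, at a median of -0.24 that turns to 0.17 with equal FPKM sums. That median was -0.70 among genes averaging at least 10 FPKM.

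In nitrogen assimilation 6 of 15 genes were lower and 3 higher, at a median of -0.54. The NAD-specific glutamate dehydrogenase gene gdh-1, of glutamate breakdown, had 101 FPKM with DMSO and 7.59 with staurosporine in 0 Ca2+ medium, against 11.001 to 70.0 in standard medium and 15.2 to 49.8 with 20 mM CaCl2. Its DMSO value in 0 Ca2+ medium was the highest of the 6 libraries and its staurosporine value there the lowest. The gene nmr, a repressor of nitrogen catabolism genes, went from 32.5 to 2.25 FPKM, against 21.1 to 13.6 in standard medium and 21.5 to 20.9 with 20 mM CaCl2. The nitrate transporter gene nit-10 went the other way, from 16.5 to 84.2 FPKM, against 27.3 to 15.7 in standard medium and 38.8 to 8.69 with 20 mM CaCl2. Nit-10 was the highest of the 6 libraries with staurosporine in 0 Ca2+ medium.

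On the higher side, genes for the breakdown of amines, purines and pyrimidines led the metabolic lists, with 9 of 22 higher against 18.7% of all genes, 2 lower and a median of 0.69. The peroxisomal copper amine oxidase gene NCU05518 had 4.61 FPKM with DMSO and 139 with staurosporine, against 4.67 to 19.2 in standard medium and 3.97 to 1.37 with 20 mM CaCl2. NCU08925, another amine oxidase gene, went from 3.39 to 66.0 FPKM, against 2.68 to 30.6 in standard medium and 2.76 to 3.32 with 20 mM CaCl2. Agmatinase (NCU11320), which opens a polyamine route from agmatine, went from 5.73 to 126 FPKM, against 4.02 to 14.2 in standard medium and 5.34 to 2.65 with 20 mM CaCl2. In all 3 the 0 Ca2+ staurosporine library was the highest, with standard medium between it and 20 mM CaCl2 medium. Thymine dioxygenase (NCU06416), of thymine salvage, went from 3.14 to 85.3 FPKM, against 12.6 to 36.5 in standard medium and 48.8 to 8.91 with 20 mM CaCl2.

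Peroxisomes and fatty acid oxidation had 12 of 54 genes higher and 0 lower, at a median of 0.39; the higher share is near the background of 18.7%. The members that build the organelle did not move past 2 times: of 20 peroxins 0 were higher and 0 lower, at 0.031. The acyl-CoA dehydrogenase gene acd-2, of fatty acid oxidation, went from 37.2 to 293 FPKM, against 34.4 to 162 in standard medium and 39.0 to 47.9 with 20 mM CaCl2. A thiolase gene, NCU09646, went from 42.4 to 141 FPKM, against 32.6 to 115 in standard medium and 37.1 to 45.0 with 20 mM CaCl2.

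Of the 7 glyoxylate cycle and gluconeogenesis genes 3 were higher and 1 lower. Isocitrate lyase (acu-3) and malate synthase (acu-9), the enzymes of the cycle that let cells grow on acetate, went from 138 to 408 FPKM and from 95.9 to 406 FPKM. In standard medium acu-3 went from 40.9 to 319.7 and acu-9 from 68.0 to 347, and in 20 mM CaCl2 medium from 34.8 to 50.3 and from 110.3 to 87.0. Phosphoenolpyruvate carboxykinase (acu-6), the entry to gluconeogenesis, was lower, from 30.4 to 4.50 FPKM, whereas fructose-1,6-bisphosphatase (fbp-1), a later step, was higher, from 7.74 to 24.9 FPKM. The ratios of acu-5, acu-15 and acu-8 were -0.41, 0.36 and 0.043, within 2 times. The genes of 1 pathway thus went both ways.

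In glycolysis, fermentation and sugar storage 7 of 43 genes were higher and 12 lower, 16.3% and 27.9% against 18.7% and 20.9% of all genes. In the citric acid cycle list 2 of 20 were higher and 4 lower, 10% and 20%. The highest of that list, tca-2 at a log2 ratio of 1.67, is annotated as a methylcitrate synthase, an enzyme of propionate breakdown. The medians of these lists, -0.13 and -0.28, turn to 0.26 and 0.17 with equal FPKM sums. Among genes averaging at least 10 FPKM they were -0.68 and -0.30. The pyruvate decarboxylase gene cfp, of ethanol fermentation, went from 368 to 49.8 FPKM, against 376 to 20.6 in standard medium and 223 to 25.5 with 20 mM CaCl2. An alcohol dehydrogenase gene, NCU09035, went the other way, from 2.20 to 16.9 FPKM. An aconitase gene (NCU00977) went from 92.5 to 13.7 FPKM, against 87.3 to 24.8 in standard medium and 88.2 to 67.0 with 20 mM CaCl2. The malate dehydrogenase gene NCU04122 had 89.9 FPKM with DMSO and 18.6 with staurosporine here, against 364 to 15.1 in standard medium and 473 to 419 with 20 mM CaCl2, so that its DMSO value in 0 Ca2+ medium was already below the other DMSO libraries.

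Proteasome and vacuole lists had medians a little above 0 and few members past 2 times. Proteasome genes had 1 of 34 higher and 0 lower, at a median of 0.26, and 23 of them had a ratio above 0. Vacuole and V-type ATPase genes had 2 of 17 higher and 0 lower. The vacuolar protease A gene pep4, which activates the other vacuolar proteases, went from 169 to 565 FPKM, against 144 to 425 in standard medium and 170.4 to 111 with 20 mM CaCl2. Aspartyl aminopeptidase (NCU04192) went from 76.9 to 187 FPKM, against 80.8 to 150.3 in standard medium and 83.4 to 53.6 with 20 mM CaCl2. Ubiquitin conjugation and removal had 6 of 53 higher and 7 lower, at a median of -0.016 that turns to 0.43 with equal FPKM sums.

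In the autophagy and cell death list 3 of 10 genes were higher, against 18.7% of all genes, and 0 lower, at a median of 0.27. In standard medium 3 of 10 were higher too, at a median of 0.53. The genes higher in 0 Ca2+ medium were ATG5 (NCU04662), the ATG1 kinase gene apg-1 that starts autophagosome formation, and NCU06672, annotated as the ubiquitin-like activating enzyme ApgG. They went from 7.95 to 21.9 FPKM, from 10.4 to 27.5 FPKM and from 15.2 to 36.1 FPKM. The gene atg-8, whose product coats the autophagosome membrane, went from 235 to 457 FPKM, against 172 to 413 in standard medium and 187 to 108 with 20 mM CaCl2. Of the others, ATG13 (NCU04840) was at a log2 ratio of 0.29, ATG16 (NCU06267) at 0.26 and ATG12 (NCU10049) at 0.079. The metacaspases NCU09882 and NCU02400, proteases linked to fungal cell death, were at -0.27 and 0.13, and the protease gene NCU05200 (nma-111) at -0.71. The genes named for cell death were within 2 times and the 3 past it were autophagy genes, a split of few members that was not tested.

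Redox defence genes had 10 of 39 higher and 7 lower, at a median of 0.097 that turns to -0.18 with the length trend removed. Glutathione transferases, which attach glutathione to reactive compounds, had 5 of 9 higher and 1 lower, at a median of 1.25. The catalase genes went apart: cat-1, the catalase stored in spores, went from 10.6 to 69.1 FPKM, and cat-3, the catalase of growing hyphae, from 50.8 to 7.98 FPKM. In standard medium cat-1 went from 2.88 to 37.4 and cat-3 from 37.4 to 2.12, and in 20 mM CaCl2 medium from 2.55 to 11.2 and from 45.8 to 10.03, so both genes kept their direction in the 3 media. Thioredoxin reductase (cys-9) went from 155 to 31.3 FPKM.

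Cytochrome P450s and monooxygenases had 13 of 34 higher and 6 lower, at a median of 0.44. That median was 0.077 with no filter and 0.019 among genes averaging at least 10 FPKM. FPKM of the list summed to 778 with DMSO and 578 with staurosporine. The P450 gene NCU09115 had a log2 ratio of 3.33, below its 4.25 and 4.72 in standard and 20 mM CaCl2 medium. The drug pump gene NCU09975 also had its lowest ratio here, 3.94 here against 6.66 and 6.50. Among the other ABC transporters, NCU07546 (annotated MDR) went from 10.6 to 2.95 FPKM, against 5.71 to 29.4 in standard medium and 8.44 to 14.4 with 20 mM CaCl2. The list had 1 of 14 higher, NCU09975, and 3 lower.

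Signalling genes were mostly within 2 times. Of 81 protein kinase genes, the family staurosporine binds, 1 was higher and 14 lower, at a median of -0.28. Phosphatases had 2 of 33 higher and 7 lower, at -0.29, the lower share of 21.2% being near the 20.9% of all genes. The medians of kinases and phosphatases both turn to 0.15 with equal FPKM sums. The casein kinase gene ck-1a, known for its part in the circadian clock, went from 136 to 42.3 FPKM, against 135 to 208 in standard medium and 158 to 186 with 20 mM CaCl2. The RIO2 kinase (rbg-40), which matures the small ribosomal subunit, went from 26.7 to 5.67 FPKM. MAP kinase cascade and germling fusion genes had 2 of 21 lower and 0 higher, those being ham-5, the scaffold of the fusion kinase cascade, from 13.5 to 2.76 FPKM, and ham-10, from 9.202 to 2.74 FPKM.

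The calcium handling list had 1 of 28 genes higher and 4 lower, at a median of -0.27 that turns to 0.12 with equal FPKM sums. In standard medium 11 were higher and the median was 0.35. The 12 pumps, exchangers and channels had a median of -0.35 here and 1.10 in standard medium. Calmodulin (NCU00171), the sensor that carries the calcium signal, was the gene higher, from 19.8 to 43.2 FPKM, against 19.1 to 35.5 in standard medium and 21.4 to 14.5 with 20 mM CaCl2. The calcineurin B gene cnb-1, of the phosphatase that calmodulin activates, went from 155 to 48.4 FPKM, against 170.2 to 129 in standard medium and 173 to 121 with 20 mM CaCl2. The plasma membrane calcium channel gene Cch1 (NCU02762) went from 4.40 to 1.46 FPKM, against 3.88 to 9.62 in standard medium and 3.80 to 7.51 with 20 mM CaCl2. No gene of this list passed the test between media described below.

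Cell wall genes had 12 of 87 higher and 17 lower, shares near or below the background. An exochitinase gene (NCU10852) went from 6.29 to 62.7 FPKM, and a chitin deacetylase gene (NCU09508) from 0.681 to 11.5 FPKM, with its other values below 1 FPKM. The anchored wall protein gene acw-6 went from 73.0 to 14.6 FPKM, against 61.4 to 29.8 in standard medium and 107 to 149 with 20 mM CaCl2. Cytoskeleton and motor genes had 11 of 52 lower and 0 higher, the lower share of 21.2% being near the 20.9% of all genes. A kinesin (NCU06832) went from 14.9 to 1.197 FPKM and a septin (NCU01998), of the rings at septa and tips, from 16.5 to 2.68 FPKM. Elsewhere the septin went from 24.8 to 29.6 in standard medium and 35.8 to 34.6 with 20 mM CaCl2. Vesicle traffic had 8 of 88 higher and 10 lower, with the GTPase gene NCU06410 (YPT52) going from 45.7 to 132 FPKM and the clathrin heavy chain (NCU02510) from 66.1 to 22.5 FPKM. The medians of the cell wall, cytoskeleton and vesicle lists, -0.20, -0.27 and -0.045, turn to 0.14, 0.17 and 0.39 with equal FPKM sums. Among genes averaging at least 10 FPKM they were -0.50, -0.23 and -0.052.

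Transcription factors had 16 of 55 lower, 29.1% against 20.9% of all genes, and 6 higher, 10.9% against 18.7%. Their median was -0.62, against 0.52 in standard medium. The zinc finger gene NCU05285, annotated RfeC, went from 70.5 to 3.77 FPKM, against 46.5 to 39.6 in standard medium and 47.5 to 88.8 with 20 mM CaCl2. NCU00155, a C6 zinc cluster factor, went from 11.2 to 1.48 FPKM, against 5.19 to 7.94 in standard medium and 3.28 to 15.6 with 20 mM CaCl2. Histone and chromatin genes had 8 of 57 higher and 8 lower, and DNA replication and repair genes 4 of 80 and 5, both below the background shares. Their medians, -0.34 and -0.095, turn to 0.08 and 0.29 with equal FPKM sums. The SET domain gene set-6 went from 0.399 to 14.4 FPKM, with the other libraries below 1 FPKM.

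Spore genes had a median of 0.75, above that of every other list in this setting; with no filter it was 0.56, below the 0.64 of amine, purine and pyrimidine breakdown. The list had 4 of 10 genes higher and 1 lower. The DMSO library of 0 Ca2+ medium held con-6, con-8 and con-10, which mark spore formation, near the limit of the filter, at 2.47, 1.15 and 2.44 FPKM. With staurosporine con-8 was at 10.3 FPKM, against 0.990 to 5.05 in standard medium and 2.05 to 0.972 with 20 mM CaCl2. The 4 genes higher were con-6, con-8, con-10 and eas, and the largest ratio of the list was 3.64. The rodlet gene eas, for the water-repellent coat of conidia, went from 2.10 to 7.95 FPKM, against 18.02 to 39.4 in standard medium and 69.7 to 52.2 with 20 mM CaCl2. Eas was lower in both 0 Ca2+ libraries than in the other 4. The gene acon-2, needed for conidiation, went from 5.40 to 0.451 FPKM, and the regulator genes fl and acon-3 were at log2 ratios of 0.56 and 0.46. The flbC homologue NCU03184 went from 32.2 to 15.6 FPKM, ccg-1 was at 0.95 and the carotenoid gene al-1 at -0.22. These genes mark conidiation and do not count ungerminated spores.

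Among the genes with a name that averaged at least 10 FPKM, the 10 lowest ratios lay between -5.20 for ded-1 and -4.80 for NCU08595. Besides these and Kap123, hsp70-2 was one of them, as were the helicase gene dbp-2 (NCU07839), from 161 to 3.65 FPKM, the nucleolar protein gene nop-58 (NCU03396), from 178 to 5.11 FPKM, and the ribosome biogenesis gene NCU09521, from 54.1 to 0.856 FPKM. The others were of other function. The NADP-dependent malic enzyme gene NCU03651, which makes NADPH from malate, went from 68.8 to 1.13 FPKM, against 68.3 to 1.69 in standard medium and 35.8 to 37.5 with 20 mM CaCl2. The FK506-binding protein gene fkr-4, of a family that turns proline bonds in proteins, went from 162 to 4.42 FPKM, against 178 to 56.3 in standard medium and 188 to 259 with 20 mM CaCl2. The phosphate transporter gene NCU07375 went from 102 to 2.47 FPKM, against 79.3 to 16.7 in standard medium and 44.4 to 76.5 with 20 mM CaCl2. The malic enzyme gene was nearly as low in standard medium, while the others were less low there.

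On the higher side the 10 ratios lay between 4.01 and 6.93, the latter that of the ketoacyl reductase gene. NCU04639, annotated as Nce102, in yeast a protein of plasma membrane domains, went from 7.56 to 214 FPKM, against 3.99 to 26.2 in standard medium and 4.47 to 6.52 with 20 mM CaCl2. For mig-9, annotated as a pyridoxal reductase, which acts on vitamin B6, FPKM went from 87.9 to 2077, against 74.5 to 5089.7 in standard medium and 82.5 to 6673 with 20 mM CaCl2, so its ratio was lower in 0 Ca2+ medium than in the other media. NCU07723, annotated as a norsolorinic acid reductase, went from 4.81 to 119 FPKM, against 4.78 to 68.6 in standard medium and 10.8 to 12.8 with 20 mM CaCl2. NCU00984, with a von Willebrand domain, went from 3.90 to 78.0 FPKM, against 4.37 to 40.2 in standard medium and 3.62 to 12.5 with 20 mM CaCl2. NCU09777, with a UPF0075 domain, went from 0.517 to 26.9 FPKM, against 0.328 to 5.11 in standard medium and 1.16 to 0.739 with 20 mM CaCl2, and the endonuclease, exonuclease or phosphatase gene NCU03682 went from 3.09 to 84.2 FPKM. Apart from mig-9, each of these had its highest value with staurosporine in 0 Ca2+ medium.

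The most abundant genes had smaller ratios than these. The thiazole enzyme gene NCU06110 and nmt-1, both of thiamine synthesis, went from 14958 to 6016 FPKM and from 10101 to 5149 FPKM. The gene oli, for the subunit of the ATP synthase rotor ring, went from 9251 to 10049 FPKM, against 9581 to 4318 in standard medium and 10237 to 6439 with 20 mM CaCl2, and aac, the mitochondrial carrier of ADP and ATP, from 10796 to 6729.8 FPKM. NCU11815, without an informative product, went from 16058 to 12575 FPKM, against 15440.2 to 4659 in standard medium and 15122 to 7537 with 20 mM CaCl2. The ribosomal protein genes among them, besides P2 and S22, were S18 (NCU00475), L18 (NCU03988), S24 (NCU07182), L20 (NCU08389), crp-5 and the ubiquitin fusion ubi::crp-6, with ratios of -0.61, -0.37, -0.095, -0.14, -1.08 and -0.78. Among the 100 genes with the highest DMSO values 92 had a ratio below 0, 23 were lower by 2 times, a share near the 20.9% of all genes, and 0 were higher, at a median of -0.70. These genes were ranked on the library the ratio is taken against: ranked on the staurosporine library instead, 12 of the 100 were lower and 2 higher, at a median of -0.53. Both rankings shared 86 genes.

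Genes without a symbol or an informative product went higher more often than annotated ones. Of 3249 such genes 831 were higher, 25.6%, and 544 lower, 16.7%, at a median of 0.17. Of 4282 annotated genes 578 were higher, 13.5%, and 1027 lower, 24.0%, at a median of -0.24. The ratio also moved with level and length, which were not held equal here. In the lowest of 5 bins of mean FPKM 429 of 1507 genes were higher and 146 lower, in the highest 173 of 1506 and 415. In the shortest bin of length 475 of 1440 were higher and 218 lower, in the longest 97 of 1434 and 351. Whether annotation matters apart from level and length was not tested. Among the unnamed genes NCU02327 went from 1.45 to 90.6 FPKM, against 1.01 to 28.9 in standard medium and 1.74 to 0.522 with 20 mM CaCl2, and NCU04690 went from 0.833 to 61.6 FPKM, against 0.493 to 4.58 in standard medium and 1.44 to 0.304 with 20 mM CaCl2. NCU10591, listed at 0 with DMSO, had 12.01 FPKM with staurosporine. NCU12134 had the highest ratio of the genes without a name that averaged at least 10 FPKM, 5.51. On the lower side NCU04276 had the lowest ratio of all genes, -6.68, and went from 553 to 4.39 FPKM, against 387 to 3.31 in standard medium and 205 to 28.4 with 20 mM CaCl2. Its ratio was nearly as low in standard medium, -6.49, and was also below 0 with 20 mM CaCl2, -2.81. NCU01257 went from 78.8 to 1.70 FPKM, against 87.4 to 17.5 in standard medium and 78.0 to 110.3 with 20 mM CaCl2, and NCU08518 from 50.9 to 0.811 FPKM, against 61.9 to 16.1 in standard medium and 49.3 to 73.8 with 20 mM CaCl2. The latter genes were lower in 0 Ca2+ and standard medium and above their DMSO values with 20 mM CaCl2.

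The staurosporine library of 0 Ca2+ medium also held genes that were below 1 FPKM in every other library. By a rule chosen after the values were seen, 52 of the 9691 genes had at least 5 FPKM there and less than 1 in each of the other 5 libraries. The same count was 1 for the staurosporine library of 20 mM CaCl2 medium and 0 for each of the other 4. The 0 Ca2+ staurosporine library also had the most genes at 1 FPKM or more, 7527, against 6990 to 7168 in the other 5. Of the 52, 8 had a name, among them a myo-inositol transporter gene (NCU07199, from 0.205 to 5.67 FPKM), a methyltransferase gene (NCU10144, from 0.977 to 5.03) and NCU05005, an HHE domain gene (from 0.126 to 13.6). The 45 with a known length had a median of 1329 bases, against 2372 for the genes tested. Shorter genes had higher ratios in this medium, and lengths were not compared at equal level. In the other direction 15 genes were below 1 FPKM there and at least 10 in the other 5 libraries, against 2 for the staurosporine library of standard medium and 0 for each of the other 4. Of these 15, 11 had a name, and they included the ribosome assembly genes Tsr1 (NCU01503, from 27.2 to 0.794 FPKM), Esf1 (NCU04485, from 29.4 to 0.575) and Kri1 (NCU06409, from 24.5 to 0.911).

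Neighbouring genes with the same direction formed 21 runs of at least 4 on the chromosome, 8 higher and 13 lower, with 89 genes. The longest held 6 higher genes and included NCU02481, the methylisocitrate lyase gene, from 13.6 to 70.2 FPKM, and tca-2, the methylcitrate synthase gene, from 7.12 to 24.8 FPKM. Those enzymes break down propionate. The runs of 4 included the quinate genes qa-Y, qa-3, qa-4 and qa-2, a cluster for the use of quinate as carbon, at log2 ratios of 1.12, 1.02, 1.07 and 1.43. Of these, qa-Y was at 1.17 in standard medium and the other 3 between 0.048 and 0.23. Another run joined aod-1 to pod-1 and the rRNA processing gene PNO1 (NCU07956), which went from 30.5 to 6.13 FPKM. How many such runs the order of genes gives by itself was not tested.

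Whether the ratio of 0 Ca2+ medium differs from that of the other media was tested with limma across 7415 genes, taking the ratios of standard and 20 mM CaCl2 medium as the spread. The 0 Ca2+ side is 1 ratio of 2 single libraries, and the test rests on 1 residual degree of freedom and on the variance shared across genes. At a Benjamini-Hochberg adjusted p below 0.05, 33 genes were higher, 0.445%, and 3 lower, 0.0405%; at an unadjusted p below 0.05 they were 628 and 670. Of the 33 higher, 30 had no symbol or informative product, and all 33 had less than 10 FPKM in every library but the 0 Ca2+ staurosporine one. Of these, 25 averaged below 1 FPKM over the other 5 libraries, so they passed the filter on low values only through the library in which they were high, and their call is no independent result. With the filter set on the 4 libraries of the other media alone, a setting added after seeing the data, 2 genes were higher and 1 lower. In the main setting the largest difference among the 33 was that of NCU12134. This gene went from 4.27 to 239 FPKM in 0 Ca2+ medium. Elsewhere it went from 1.99 to 4.94 in standard medium and 3.12 to 0.956 with 20 mM CaCl2. The difference was 5.55 (SE 0.89, adjusted p = 0.0424, and up to 0.235 over the alternatives). Of the 3 lower, gdh-1 had the largest difference, -5.67 (SE 0.77, adjusted p = 0.0405, and up to 0.235), its ratio being -3.57 here and 2.56 and 1.65 in the other media. No gene of the ribosome biogenesis list passed, though the median difference over that list was -3.24. In the error of each gene the shared variance counted for 8.89 degrees of freedom, against 1 from the gene's own ratios. Why no gene of this list passed was not tested. The counts depended on the settings: both were 0 with a pseudocount of 0.1, with no filter, with centred ratios, without the mean trend and with the length trend removed, 0 and 2 among genes averaging 10 FPKM or more, and 126 and 206 with equal FPKM sums. On simulated data the test also made more false calls than its threshold states.

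**Figure D5:**
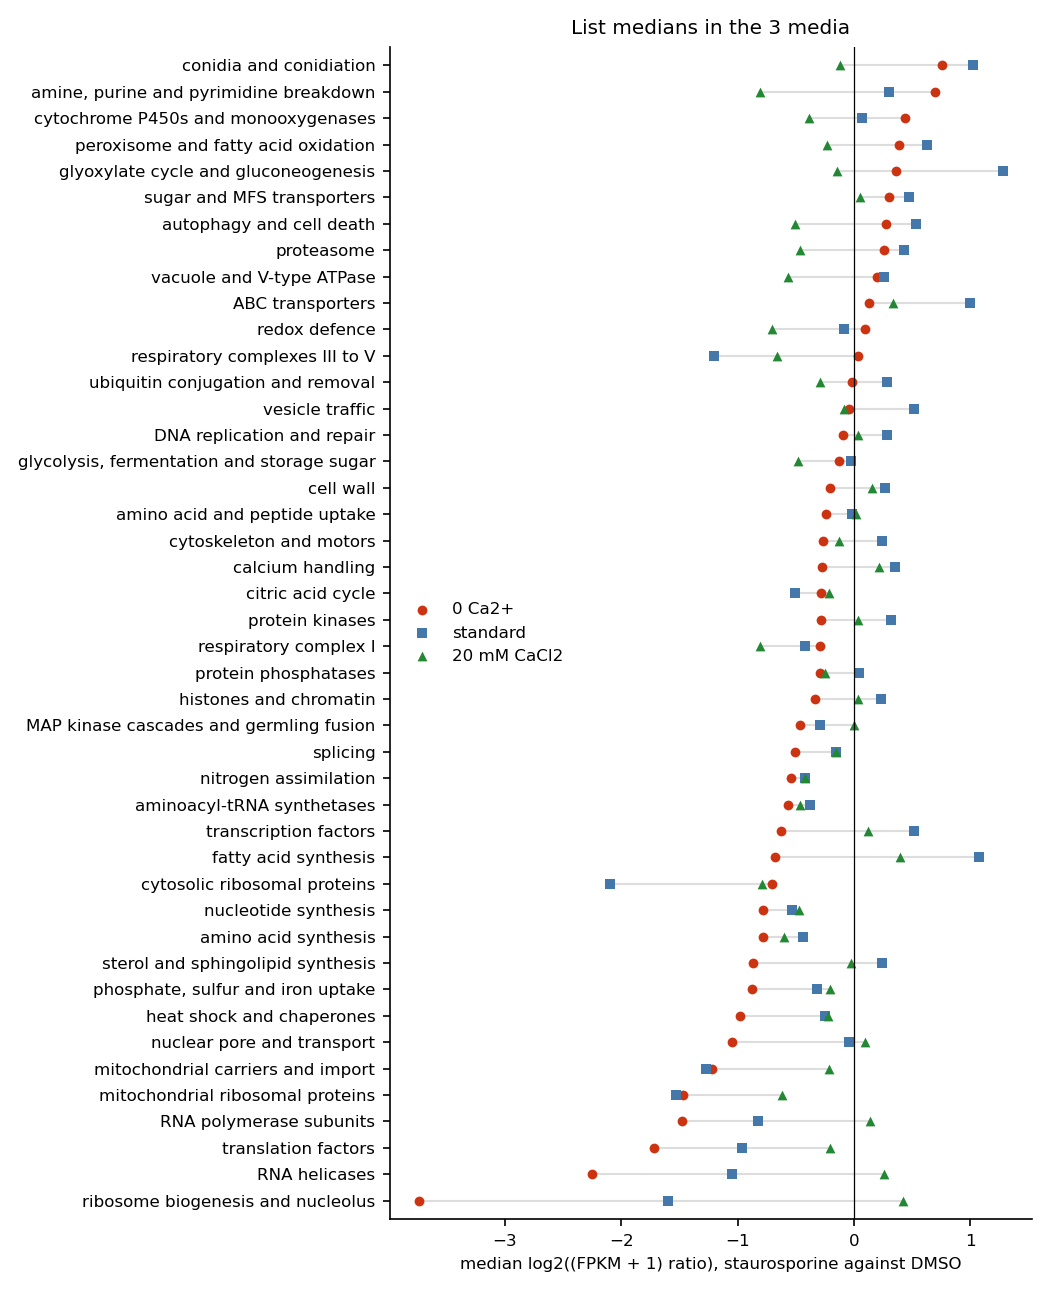
Median log2 ratio of staurosporine against DMSO (x axis) for the 44 lists (rows, ordered by the 0 Ca2+ median), with 1 point per medium. The 3 media are widest apart for ribosome biogenesis, at -3.74, -1.60 and 0.42.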

How the data were processed

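Poly(A) RNA of Neurospora crassa was read from 1 end for 50 bp, as the labels' protocols state. Per the submitters' processing notes, TopHat2 2.0.4 aligned the reads and Cufflinks 2.0.2 with Cuffdiff quantified them; for the genome build, it is not given in the sources used here. Per the file headers the authors deposited FPKM per gene and library, written with a decimal comma. The values used are this FPKM as deposited; the deposited ratios, p values and calls were not used. The tables hold no counts and the depth is unknown, so no counting interval is given. A gene listed at 0 may be a failed estimate.

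Ratios were taken as log2 of FPKM + 1, a scale on which changes of low genes come out too small, for genes averaging at least 1 FPKM. The difference of the 0 Ca2+ ratio from those of the other media was tested in R 4.3.3 by limma 3.58.1 (moderated test, mean trend, two-sided, Benjamini-Hochberg adjusted p below 0.05). On simulated data with the spread of the real ratios this test recovered few of the smaller changes, its calls varied between draws, and the share of false calls was often above the threshold, so the adjusted p values are too small to that extent. Python 3.11.15 with pandas 2.3.3, numpy 2.4.6, statsmodels 0.14.6 and matplotlib 3.10.9 was used.

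Symbols, products, neighbours and lengths were taken from RefSeq's gene table (assembly NC12), in which 9141 IDs matched, and products also from the deposited tables; 66 IDs name more than 1 locus. The comparison and the 44 gene lists were chosen with earlier results of these data known. After matching by symbol or product pattern, 240 entries were left out of 34 lists because their annotation names another function. The genes named were drawn from those with the 10 highest and 10 lowest ratios among those with a name that average at least 10 FPKM, the 3 at each end without one, the 10 most abundant in each library, the 4 largest ratios of each list (all of a list of 12 or fewer), up to 6 each way past the test, genes listed at 0 in 1 library, and runs of neighbours; P2 and S22 are among the most abundant. Genes seen in or missing from 1 library were chosen after their values were seen. Other settings tried were a pseudocount of 0.1 or 5, no filter, an average of at least 10 FPKM, equal FPKM sums, centred ratios and no mean trend. Centred ratios had the median ratio of genes averaging at least 10 FPKM in that medium taken off. Removal of the length trend, and for the test a filter on the other media's libraries, were added after seeing the data.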

Additional observations from a re-analysis of the deposited data

Results flagged for a closer look

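In limma's test of the ratio in 0 Ca2+ medium against the mean ratio of the other media, 9 genes named here came past the threshold, 6 higher and 3 lower in 0 Ca2+ medium. The 0 Ca2+ side of that test is 1 ratio of 2 single libraries, and its spread comes from media that differ in calcium. Their adjusted p went up to 0.236 over the alternatives, so none of them passed under every setting, and on simulated data the test made more false calls than its threshold states.

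NCU12134 had the largest positive difference, 5.55 (SE 0.89), and went from 4.27 to 239 FPKM in 0 Ca2+ medium. NCU07390 differed by 5.51 (SE 0.64, adjusted p = 0.0297 in limma) and went from 3.64 to 32.8 FPKM, against 6.33 to 0 in standard medium and 4.32 to 0 with 20 mM CaCl2. NCU00532 differed by 5.004 (SE 0.594) and went from 0 to 6.39 FPKM, against 2.30 to 0 in standard medium and 4.71 to 0 with 20 mM CaCl2, so it was listed at 0 in 3 libraries. Both genes were listed at 0 with staurosporine in the other media. NCU03682, annotated as an endonuclease, exonuclease or phosphatase, differed by 4.48 (SE 0.70) and went from 3.09 to 84.2 FPKM, against 2.02 to 2.76 in standard medium and 3.45 to 2.11 with 20 mM CaCl2. NCU02947 differed by 4.30 (SE 0.61) and went from 1.40 to 37.8 FPKM, against 1.25 to 0.985 in standard medium and 1.95 to 1.26 with 20 mM CaCl2. NCU00354 differed by 4.27 (SE 0.71) and went from 0 to 9.47 FPKM, was listed at 0 in both libraries of standard medium, and went from 2.38 to 0 with 20 mM CaCl2, so it passed the filter on low values only through the library in which it was high.

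On the lower side gdh-1 (NCU00461) differed by -5.67 (SE 0.77). NCU08674 differed by -4.58 (SE 0.74) and went from 110.3 to 6.84 FPKM, against 42.3 to 63.0 in standard medium and 49.5 to 95.9 with 20 mM CaCl2. NCU09395 differed by -4.56 (SE 0.75) and went from 14.6 to 0.475 FPKM, against 4.23 to 6.29 in standard medium and 1.84 to 9.12 with 20 mM CaCl2. In all 3 the ratio was below 0 in 0 Ca2+ medium and above 0 in both other media, and the DMSO value in 0 Ca2+ medium was the highest of the DMSO libraries.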

How the results depend on the processing

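The count of genes higher by at least 2 times, 1409, became 788 with a pseudocount of 5 and 703 with a stricter filter, an average of at least 10 FPKM, and the count lower, 1571, became 1020 with equal FPKM sums; the other settings kept each count within 1.5 times, between 1117 and 2089 higher and between 1145 and 1732 lower. The test between media gave 33 higher and 3 lower. With a pseudocount of 5 it gave 173 and 9, and with equal FPKM sums 126 and 206. It gave 0 and 0 with a pseudocount of 0.1, with no filter, with centred ratios, without the mean trend and with the length trend removed, 0 and 2 with the stricter filter, and 2 and 1 with the filter set on the libraries of the other media; in the last setting 25 of the 33 higher genes are no longer tested, and for the others the cause was not tested. The median of a list changed sign in 13 of 44 lists with equal FPKM sums, 5 with centred ratios, 3 with the stricter filter and 3 with the length trend removed, each from a median near 0. With equal FPKM sums 27 of the 304 named genes were no longer past 2 times and 6 came past it. No paired analysis was possible because each group holds 1 library and the labels give no replicate numbers; the test between media does use ratios taken within a medium. Leaving out a library was not possible, as the test has 1 residual degree of freedom. With no counts and 1 library a group, neither counting error nor culture-to-culture spread can be given, and low FPKM values are the least certain.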
